A study of Mus musculus with 20 samples.

Results

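The genes examined were 8 ligands that act on neurons or Schwann cells of injured nerve: Bdnf, Ntf3, Gdnf, Artn, Nrg1, Lif, Cntf and Hgf. They were taken by symbol from the deposited count tables of sorted nerve endothelial cells, and all 8 of 8 were found among 55376 genes. Of the 8, 7 passed the low-count filter in the Tomato experiment (all but Artn) and 4 passed it in the Cherry experiment (Bdnf, Ntf3, Lif and Cntf).

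Bulk polyA RNA was sequenced from cells of pooled mouse sciatic nerves that were dissociated with enzymes and sorted as reporter-positive and CD45-negative. In the Tomato experiment the endothelial driver Cdh5(PAC)-CreERT2 recombined the R26-TomatoLSL reporter in mice labelled Plxnd1 WT, and the groups were uninjured nerves of adult mice (intact, n = 5 libraries) and the lesion site at 7 days (7 dpi, n = 5) and 14 days (14 dpi, n = 4) after injury. In the Cherry experiment cells were marked by a Kdr-Cherry reporter and taken from the lesion at 7 dpi, either from control mice labelled Plxnd1 WT (WT, n = 3) or from mice in which a Cdh5-driven CreER deleted a floxed Plxnd1, written Plxnd1 fl/fl (KO, n = 3). The design text names the lesion a bridge and the condition label names it a crush; which one applied is not settled in the sources used here. Both experiments hold libraries of the labels' batches 1133 and 1292 in every group. No label ties a library to particular animals, and the p-values therefore reflect only how libraries differ, part of which may be technical.

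Neurotrophic factors are secreted proteins that bind receptors on nerve cells and their glia and sustain survival, axon growth and myelination. Bdnf and Ntf3 are neurotrophins, read by the Trk receptors and by p75 (Ngfr). Gdnf and Artn signal through Ret with a GFRalpha co-receptor, Nrg1 through the ErbB receptors, Lif and Cntf through Lifr and gp130 (Il6st), and Hgf through Met. In injured nerve these ligands are best known as products of Schwann cells, fibroblasts and macrophages. Blood vessels of the lesion are one further possible source, and their RNA is what the sort was made to collect.

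Promoter windows are shown for the 4 ligands whose levels changed in any comparison, 1 a gene, and of several windows the one nearest to the gene's start in the deposited table was taken. They are RefSeq windows on GRCm38.p6, 250 bases before to 50 after a transcript start, read 5′ to 3′ on the gene's strand. Capitals mark matches, on either strand, to the hypoxia response core ACGTG in Bdnf and Ntf3, or to the AP-1 letters TGACTCA in Lif and Cntf. The Bdnf window lies at chr2:109674450-109674749 (plus strand) and the Ntf3 window at chr6:126166695-126166994 (minus strand), where the transcript start is 166 bases from the gene start in the deposited table. The Lif window lies at chr11:4257318-4257617 (plus strand, 11 bases from that start) and the Cntf window at chr19:12765583-12765882 (minus strand).
Bdnf: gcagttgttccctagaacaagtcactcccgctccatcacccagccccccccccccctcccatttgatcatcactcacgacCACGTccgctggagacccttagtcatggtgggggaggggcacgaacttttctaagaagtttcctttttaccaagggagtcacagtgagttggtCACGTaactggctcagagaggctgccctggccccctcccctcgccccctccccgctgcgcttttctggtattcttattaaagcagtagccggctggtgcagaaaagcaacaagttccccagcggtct
Ntf3: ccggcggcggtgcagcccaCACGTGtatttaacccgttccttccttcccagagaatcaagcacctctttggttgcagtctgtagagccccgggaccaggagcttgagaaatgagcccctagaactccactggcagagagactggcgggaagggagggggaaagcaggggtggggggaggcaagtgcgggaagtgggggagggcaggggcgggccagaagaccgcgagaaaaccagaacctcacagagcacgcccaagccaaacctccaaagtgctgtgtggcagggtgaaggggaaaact
Lif: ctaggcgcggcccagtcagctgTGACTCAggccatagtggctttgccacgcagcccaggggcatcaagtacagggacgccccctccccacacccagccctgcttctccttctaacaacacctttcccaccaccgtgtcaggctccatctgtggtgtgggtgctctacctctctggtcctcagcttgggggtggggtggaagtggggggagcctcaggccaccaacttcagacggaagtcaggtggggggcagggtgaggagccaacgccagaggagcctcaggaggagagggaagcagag
Cntf: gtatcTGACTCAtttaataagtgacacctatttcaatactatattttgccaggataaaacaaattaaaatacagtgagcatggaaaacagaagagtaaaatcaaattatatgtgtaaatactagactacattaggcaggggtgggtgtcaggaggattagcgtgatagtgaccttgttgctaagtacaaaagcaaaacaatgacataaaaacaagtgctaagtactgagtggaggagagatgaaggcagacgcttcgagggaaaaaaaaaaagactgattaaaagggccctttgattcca
Bdnf has 7 windows in the RefSeq table; the one shown holds ACGTG at 2 places, 1 other holds it once and 5 hold none. Ntf3 has 2 windows, of which the one not shown holds none. The Ntf3 window shown holds it on both strands of 1 palindrome, CACGTG, so the 2 matches overlap. Lif and Cntf have 1 window each, which holds TGACTCA once. Among all 32851 RefSeq promoter windows of this length, 19.6% hold ACGTG, 5.2% hold TGACTCA and 1.8% hold the cyclic AMP response element TGACGTCA. No window of the 7 members with an entry holds TGACGTCA. Of the ligands not called, Gdnf also holds ACGTG in its window nearest to the gene start. The windows of Artn and Hgf hold neither ACGTG nor TGACTCA. These matches are letters in a window, not sites shown to be bound.

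Each Tomato library held 19.06 to 34.18 M counts and each Cherry library 19.25 to 33.79 M. Levels are CPM, counts per M of the TMM-scaled library. At these depths a count of 0 allows up to 0.0872 to 0.164 CPM, taking 3 counts as the upper limit and covering counting error only. All 10 endothelial markers (Pecam1, Cdh5, Kdr and others) were above 1 CPM in every library. Markers of other cells were present too, and the summed CPM of 10 fibroblast markers was above that of the endothelial markers in every Tomato library except intact replicate 2 and 7 dpi replicate 3. The fibroblast sums ran from 11762 to 20243 CPM in intact, 4644 to 20513 at 7 dpi and 17909 to 41152 at 14 dpi. In the Cherry libraries the fibroblast sum was 909 to 3394 CPM. Intact replicate 5 stood apart, with the lowest endothelial sum (4803 CPM, against 7675 to 12202 in the other intact libraries) and a scaling factor of 1.32, and results are given without it where they change. The deletion was visible in the RNA: Plxnd1, the plexin targeted in the KO, stood at 350, 324 and 343 CPM in WT and at 131.4, 160.5 and 160.1 CPM in KO (log2 fold change -1.23 ± 0.10 SE, edgeR adjusted p = 1.3e-04).

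**Figure D1:**
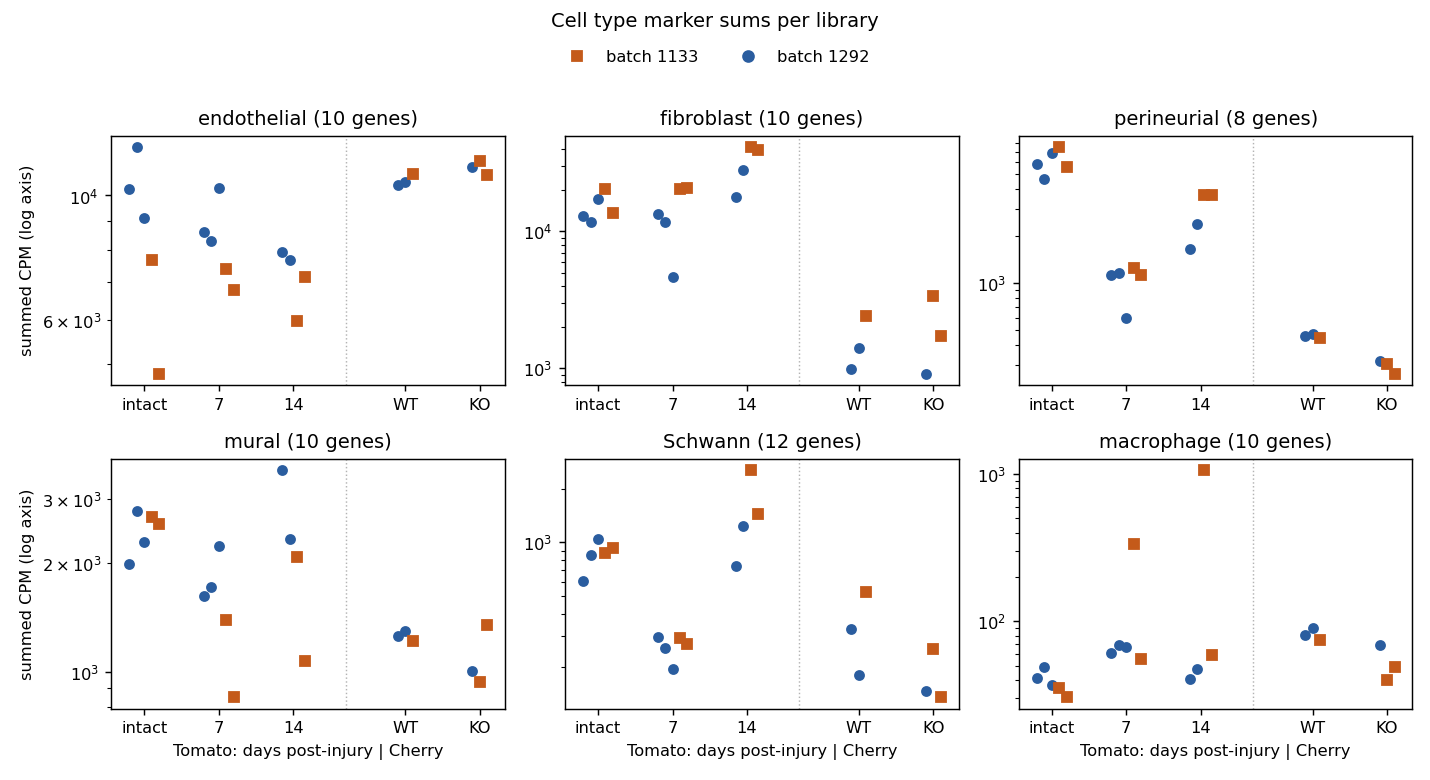
Summed CPM of 6 marker lists (log axis) for every library, by group, with batch 1133 as squares and batch 1292 as circles. Perineurial sums were 4688 to 7488 CPM in intact and 597 to 1256 CPM at 7 dpi, and fibroblast sums were at most 3394 CPM in the Cherry libraries.

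Ntf3 was the most abundant of the 8 ligands per length of transcript in intact nerve endothelial libraries. On the scale of CPM per kilobase of exon, the intact means were 5.77 for Ntf3 and 3.91 for Cntf, then 0.469 for Hgf, 0.274 for Lif, 0.162 for Gdnf, 0.148 for Bdnf, 0.143 for Nrg1 and 0.0624 for Artn. The library values of Ntf3 and Cntf overlapped, as did those of neighbours from Hgf down to Artn. At 14 dpi Ntf3 (4.38) and Cntf (4.30) were still first, and Bdnf (0.628) had moved to the third place, ahead of Hgf (0.563) and Lif (0.485) with overlapping values. Fewer cells of a type and less RNA per cell cannot be told apart in these bulk samples, here or in any result that follows.

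Of the 7 members tested, 3 changed at 7 dpi against intact: Lif rose, and Ntf3 and Cntf fell. Among all 20409 genes tested in that comparison 32.0% were called in either direction, 15.7% as rises and 16.3% as falls, so 3 of 7 lies near that background. The median log2 fold change of the 7 was -0.82, the value of Nrg1, against -0.10 over all genes. Without intact replicate 5 the median was -0.004, and without any other single library of these groups it was -1.066 to -0.574. In batch 1133 alone, which holds intact replicate 5, it was -0.026. In batch 1292 alone, which does not, it was -0.671. At 14 dpi against intact only Bdnf changed, a rise, where 12% of all genes were called (6.86% rises and 5.09% falls). From 7 to 14 dpi edgeR called none of the 7 (2 had an unadjusted p under 0.05, and DESeq2 called 1, Cntf), where 9.93% of all genes were (5.73% rises and 4.20% falls). Both comparisons with intact use the same 5 intact libraries.

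**Figure D2:**
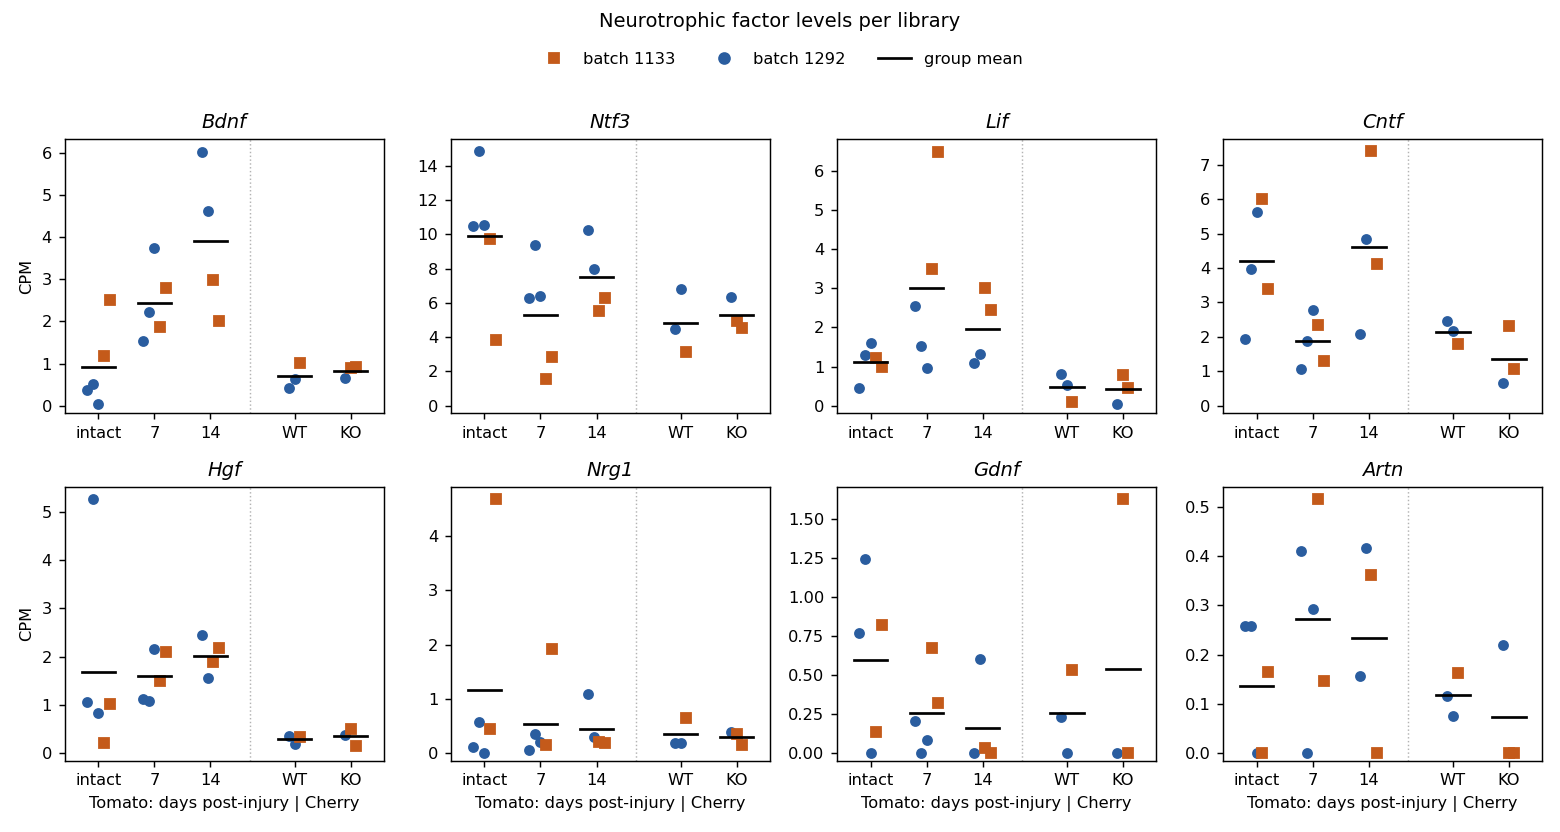
CPM of each ligand in every library (linear axes, 1 panel a gene), with the Tomato groups left and the Cherry groups right of the dotted line; squares are batch 1133, circles batch 1292 and bars group means. All 14 dpi libraries but the lowest, at 2.01 CPM, lie above every intact library for Bdnf, and Ntf3 is lower at 7 dpi than in intact within each batch.

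Bdnf, the neurotrophin read by TrkB (Ntrk2), stood at 0.367, 0.516, 0.0381, 1.19 and 2.50 CPM in intact replicates 1 to 5. It stood at 1.53, 2.21, 3.75, 1.86 and 2.79 CPM in the 7 dpi libraries and at 6.02, 4.61, 2.98 and 2.01 CPM in the 14 dpi libraries. Only intact replicate 5 reached into the range of the injured libraries; the other 4 intact values lie below all 9 injured ones. The group means stood in the order intact (0.922 ± 0.977 SD, n = 5), 7 dpi (2.43 ± 0.872, n = 5) and 14 dpi (3.91 ± 1.77, n = 4), and the values of neighbouring groups overlap. At 14 dpi Bdnf was 4.81-fold higher than in intact (log2 fold change 2.27 ± 0.69 SE, edgeR adjusted p = 0.0410). At 7 dpi it was 1.56 ± 0.65 (adjusted p = 0.0805), which did not pass; DESeq2 called it (1.55, adjusted p = 0.0420).

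The change of Bdnf was called in 1 of the 2 batches taken alone. In batch 1292 alone the log2 fold change was 3.06 at 7 dpi (adjusted p = 0.00549) and 4.11 at 14 dpi (adjusted p = 0.00506). In batch 1133 alone it was 0.26 (adjusted p = 0.838) and 0.36 (adjusted p = 0.789). The difference between batches in that change, from a group-by-batch term in edgeR, was 2.71 at 7 dpi and 3.69 at 14 dpi. Its edgeR unadjusted p was 0.0119 and 0.0019, and neither passed after adjustment (adjusted p = 0.985 and 0.172). With so few libraries per batch the term passed for 0 genes in either comparison, so the adjusted values do not show that the batches agree. Without intact replicate 5 the rise was 2.22 at 7 dpi (adjusted p = 0.00801) and 2.89 at 14 dpi (adjusted p = 0.00487). The 14 dpi call was lost without intact replicate 1 (adjusted p = 0.127), 2 (0.0956), 3 (0.0690) or 4 (0.0809) and without 14 dpi replicate 1 (0.126) or 2 (0.0962). In those refits the log2 fold change was 1.79 to 2.23. Fibroblast marker sums were also higher in all 14 dpi libraries of each batch than in the intact ones of that batch. Within 14 dpi those sums were 17909, 27891, 41152 and 39273 CPM, where Bdnf was 6.02, 4.61, 2.98 and 2.01 CPM. Of these libraries, replicates 1 and 2 are of batch 1292 and replicates 3 and 4 of batch 1133. At 7 dpi the sums of replicates 1 to 5 were 13262, 11648, 4644, 20419 and 20513 CPM. Bdnf there was 1.53, 2.21, 3.75, 1.86 and 2.79 CPM. The highest Bdnf came with the lowest sum, and the next highest Bdnf with the highest sum. The part of fibroblasts in the Bdnf values was not tested.

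Ntf3, the neurotrophin read by TrkC (Ntrk3), stood at 10.5, 14.9, 10.6, 9.72 and 3.85 CPM in the intact libraries. It stood at 6.29, 9.34, 6.37, 1.54 and 2.82 CPM at 7 dpi. The 4 higher intact libraries exceed all 5 of 7 dpi, and intact replicate 5, of batch 1133, falls among those. Within each batch the intact and 7 dpi values do not overlap. The 14 dpi libraries, at 10.2, 7.97, 5.54 and 6.28 CPM, overlap both groups. At 7 dpi Ntf3 stood at 0.488 of its intact level (log2 fold change -1.03 ± 0.29 SE, edgeR adjusted p = 0.0106), and the call held when any single library was left out (adjusted p from 0.00474 to 0.0294). It was -1.64 in batch 1133 alone (adjusted p = 0.0592) and -0.69 in batch 1292 alone (adjusted p = 0.0739), so neither batch passed by itself, and the call was also lost without the batch term (-0.91, adjusted p = 0.124). At 14 dpi the value was -0.26 ± 0.30 (adjusted p = 0.705) and from 7 to 14 dpi it was 0.77 ± 0.31 (adjusted p = 0.139).

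Within a library, Bdnf relative to Ntf3 is free of the scaling between libraries. Per kilobase, the ratio of Bdnf to Ntf3 was 0.00967, 0.00957, 9.95e-04, 0.0337 and 0.179 in the intact libraries. At 7 dpi it was 0.0672, 0.0653, 0.162, 0.332 and 0.273, and at 14 dpi 0.162, 0.159, 0.148 and 0.0882. Within each batch every 7 dpi library lies above every intact one, and in batch 1133 the 14 dpi values lie between those of the 2 intact libraries. This ratio was chosen after the values were seen and was not tested.

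**Figure D3:**
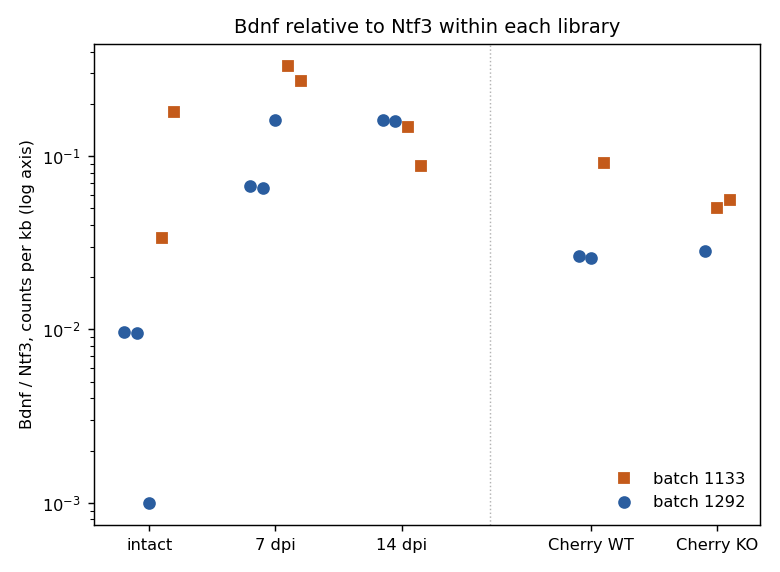
Ratio of Bdnf to Ntf3 counts per kilobase (log axis) in every library, with batch 1133 as squares and batch 1292 as circles. Ntf3 exceeds Bdnf in all libraries, from a ratio of 9.95e-04 in intact replicate 3 to 0.332 in 7 dpi replicate 4.

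Lif, a cytokine of the interleukin-6 family that is induced in many injured tissues, stood at 0.440, 1.29, 1.6, 1.22 and 0.987 CPM in intact. At 7 dpi it stood at 2.56, 1.52, 0.958, 3.48 and 6.48 CPM. The 3 highest 7 dpi libraries exceed every intact one, and the lowest lies below 4 of them. Lif rose by 1.22 ± 0.44 on the log2 scale (SE; edgeR adjusted p = 0.0427). The highest values came from batch 1133, where the change was 2.13 (adjusted p = 0.0318), against 0.61 in batch 1292 (adjusted p = 0.490). The difference between batches was -1.57 (edgeR unadjusted p = 0.0739, adjusted p = 0.985). The call was lost without intact replicate 1 (adjusted p = 0.0913), 4 (0.120) or 5 (0.0969) and without 7 dpi replicate 1 (0.113), 4 (0.0666) or 5 (0.130), with log2 fold changes of 0.94 to 1.22. At 14 dpi Lif stood at 1.09, 1.32, 3.01 and 2.44 CPM, across the ranges of both other groups, with a change of 0.58 ± 0.46 from intact (adjusted p = 0.531). Its step from 7 to 14 dpi was -0.64 ± 0.45 (adjusted p = 0.474). Within the 7 dpi group and within the 14 dpi group the libraries stood in the same order for Lif as for the fibroblast marker sum (4644, 11648, 13262, 20419 and 20513 CPM at 7 dpi, from the lowest Lif value to the highest), which was not so in intact. In both injured groups the batch 1133 libraries were the higher ones. At 14 dpi the Schwann, perineurial and macrophage sums also stood in the order of Lif. The endothelial sum there stood in the reverse order (7923, 7661, 7154 and 5971 CPM). Of the fibroblast markers 5 of 10 rose and 2 fell at 7 dpi. The macrophage marker sum of 7 dpi replicate 4, at 334 CPM, was the highest of its group, where the others were at 55.5 to 69.3 CPM, against 30.5 to 48.9 CPM in intact. The part of these cells in the Lif values was not tested.

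Cntf, a cytokine of the same family known chiefly as a product of myelinating Schwann cells, stood at 1.94, 3.98, 5.64, 6.02 and 3.39 CPM in intact. At 7 dpi it stood at 1.07, 1.87, 2.79, 2.33 and 1.31 CPM. At 14 dpi it was 2.08, 4.84, 7.40 and 4.13 CPM, overlapping the intact range. The lowest intact library falls among the 7 dpi libraries, and the other 4 lie above all of them. The fall at 7 dpi, to 0.453 of intact, was -1.14 ± 0.38 on the log2 scale (SE; edgeR adjusted p = 0.0287). It was -1.36 in batch 1133 (adjusted p = 0.133) and -0.99 in batch 1292 (adjusted p = 0.187). The call was lost without 7 dpi replicate 1 (adjusted p = 0.0711) or 5 (0.0703) and without intact replicate 3 (0.0915) or 4 (0.0573), with log2 fold changes of -0.93 to -1.07. From 7 to 14 dpi the step was 1.23 ± 0.40 (adjusted p = 0.0643), called by edgeR without 14 dpi replicate 1 (1.48, adjusted p = 0.0319) or 7 dpi replicate 3 (1.45, adjusted p = 0.0383), and by DESeq2 with all libraries (1.21, adjusted p = 0.0218). At 14 dpi it was 0.09 ± 0.39 from intact (adjusted p = 0.942).

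Between groups, Schwann cell marker sums moved in the direction of Cntf. The sum of 12 Schwann markers was 612 to 1047 CPM in intact, 197 to 295 CPM at 7 dpi and 740 to 2528 CPM at 14 dpi, with no overlap between 7 dpi and either other group. Within 7 dpi this was not so. There replicate 3 had the highest Cntf (2.79 CPM) and the lowest sum (197 CPM), and replicate 1 the lowest Cntf (1.07 CPM) and the highest sum (295 CPM). Within intact and within 14 dpi, replicate 1 had the lowest value of both. Of the 12, 7 fell at 7 dpi, among them the myelin gene Mbp (log2 fold change -4.57 ± 0.44 SE, edgeR adjusted p = 6.5e-07), and 1 rose, Ngfr. From 7 to 14 dpi 7 rose and none fell. All 8 perineurial markers fell at 7 dpi too. No marker of either list was at 0 in a Tomato library. The part of these cells in the Cntf and Ntf3 values was not tested.

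**Figure D4:**
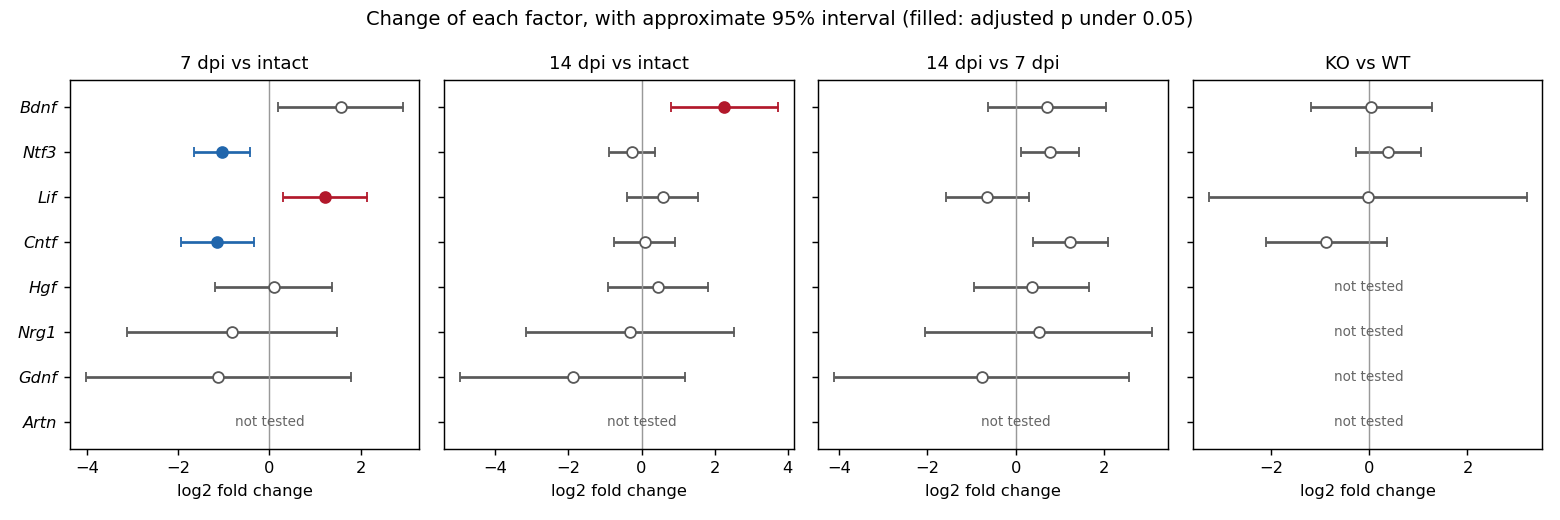
Log2 fold change of each ligand in the 4 comparisons, with approximate 95% intervals from the edgeR fits; filled points passed at an adjusted p under 0.05 and genes below the low-count filter are written as not tested. Lif rises and Ntf3 and Cntf fall at 7 dpi, Bdnf rises at 14 dpi, and the intervals of Gdnf and Nrg1 span more than 4 log2 units.

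The other 4 ligands did not pass any test, and their intervals are wide. Hgf, the ligand of Met, stood at 1.06, 5.27, 0.838, 0.204 and 1.02 CPM in intact, with 1 library far above the rest. It stood at 1.12, 1.08, 2.17, 1.5 and 2.09 CPM at 7 dpi and at 2.44, 1.55, 1.90 and 2.19 CPM at 14 dpi. The log2 fold changes from intact were 0.09 at 7 dpi (95% interval -1.19 to 1.37, edgeR adjusted p = 0.938) and 0.45 at 14 dpi (-0.91 to 1.82, adjusted p = 0.777). Its step from 7 to 14 dpi was 0.36 ± 0.62 (adjusted p = 0.823).

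Nrg1, the axonal and glial ligand of the ErbB receptors, stood at 0.11, 0.568, 0, 0.442 and 4.67 CPM in intact. It was 0.0511, 0.344, 0.208, 0.158 and 1.92 CPM at 7 dpi and 1.09, 0.302, 0.211 and 0.179 CPM at 14 dpi. Each group thus holds 1 high library and otherwise a few counts, and a gene on the opposite strand, Gm26578, held 0 to 42 counts per Tomato library. The log2 fold changes were -0.82 at 7 dpi (95% interval -3.13 to 1.49, edgeR adjusted p = 0.639), -0.31 at 14 dpi (-3.14 to 2.53, adjusted p = 0.942) and 0.52 from 7 to 14 dpi (-2.05 to 3.09, adjusted p = 0.873). Without intact replicate 5 the first 2 turned to 0.74 (adjusted p = 0.680) and 0.76 (adjusted p = 0.751).

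Gdnf, the founding ligand of the Ret receptor, was at 0.771, 1.24, 0, 0.136 and 0.823 CPM in intact. It was at 0.204, 0, 0.0833, 0.673 and 0.320 CPM at 7 dpi and at 0, 0.604, 0.0301 and 0 CPM at 14 dpi, where 3 of 4 libraries had 0 or 1 count. Its changes were -1.12 at 7 dpi (95% interval -4.03 to 1.80, edgeR adjusted p = 0.609) and -1.89 at 14 dpi (-4.96 to 1.19, adjusted p = 0.509). The step between the injured groups was -0.77 ± 1.58 (adjusted p = 0.858).

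Artn, the GFRalpha3 ligand of sensory and sympathetic neurons, never exceeded 13 counts in a library and was below the filter. It was at 0.257, 0.258, 0, 0 and 0.165 CPM in intact, at 0.409, 0, 0.292, 0.514 and 0.145 CPM at 7 dpi and at 0.156, 0.416, 0.361 and 0 CPM at 14 dpi. The groups overlap. On the log2(CPM + 1) scale, two-sided exact permutation tests gave differences from intact of 0.16 at 7 dpi (p = 0.254) and 0.11 at 14 dpi (p = 0.421), and of -0.04 between the injured groups (p = 0.778). Over the 6 permutation tests of members below the filter the adjusted p was 0.960 or above.

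Endothelial deletion of Plxnd1 was followed by no called change in the 4 ligands that could be fitted, by edgeR or DESeq2 and with 0 of 4 at an unadjusted p under 0.05, in a comparison where 0.308% of 16227 genes were called (0.129% rises and 0.179% falls). Bdnf was at 0.428, 0.638 and 1.02 CPM in WT and 0.658, 0.901 and 0.910 CPM in KO, a log2 fold change of 0.05 (95% interval -1.19 to 1.28, edgeR adjusted p = 0.983). Ntf3 was at 4.48, 6.79 and 3.11 CPM in WT and 6.36, 4.96 and 4.51 CPM in KO (0.39, interval -0.27 to 1.05, adjusted p = 0.650). The groups overlap for both neurotrophins. Cntf was at 2.45, 2.18 and 1.80 CPM in WT and 0.658, 2.31 and 1.06 CPM in KO (-0.87, interval -2.10 to 0.36, adjusted p = 0.579). Lif was at 0.817, 0.525 and 0.0818 CPM in WT and 0.0548, 0.781 and 0.455 CPM in KO (-0.03, interval -3.27 to 3.20, adjusted p = 0.996), from 1 to 26 counts per library. Batch 1292 holds WT replicates 1 and 2 and KO replicate 1, and batch 1133 the rest. Mean Lif was 0.618 CPM in KO against 0.0818 in WT in batch 1133, and 0.0548 against 0.671 in batch 1292. Bdnf also differed in direction, at 0.906 against 1.02 CPM in batch 1133 and 0.658 against 0.533 in batch 1292. The means of Ntf3 and Cntf kept 1 direction in both batches. Schwann markers summed to 182 to 531 CPM in WT and 136 to 255 CPM in KO, and their part in the Cntf values was not tested.

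The other 4 ligands were scarce in both genotypes. Gdnf was at 0.234, 0 and 0.531 CPM in WT and 0, 1.62 and 0 CPM in KO, where 1 library held all 54 counts. Hgf was at 0.35, 0.188 and 0.327 CPM in WT and 0.384, 0.511 and 0.152 CPM in KO, and Nrg1 at 0.195, 0.188 and 0.654 against 0.384, 0.361 and 0.152 CPM. Two-sided exact permutation tests gave p = 1 for Gdnf, 0.7 for Hgf and 0.8 for Nrg1, where 3 against 3 cannot go below 0.1. Artn had 4 counts or fewer in every Cherry library (0.117, 0.0751 and 0.164 CPM in WT, 0.219, 0 and 0 CPM in KO) and was not tested.

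At 7 dpi the control libraries of the Cherry experiment differed in level from the Tomato libraries of that day for some ligands. The experiments were normalized separately and used different reporters, so these are values side by side. Mean Ntf3 was 5.27 ± 3.11 CPM (SD, n = 5) in Tomato and 4.79 ± 1.86 (n = 3) in Cherry WT, and mean Cntf 1.88 ± 0.709 and 2.14 ± 0.328. Bdnf was 2.43 ± 0.872 against 0.696 ± 0.301, Lif 3.0 ± 2.17 against 0.475 ± 0.370 and Hgf 1.59 ± 0.517 against 0.288 ± 0.0880, with no overlap between the libraries of the experiments for these 3. The fibroblast marker sums did not overlap either, at 4644 to 20513 CPM in Tomato 7 dpi and 997 to 2404 CPM in Cherry WT. Nor did the perineurial sums (597 to 1256 against 446 to 470 CPM) or the endothelial sums (6788 to 10319 against 10439 to 10921 CPM). The perineurial sum of Cherry WT came mainly from Slc2a1, Moxd1 and Itgb4. Their means there were 192, 169 and 95.5 CPM, against 384, 85.7 and 175 CPM in Tomato 7 dpi. The other perineurial markers had Cherry WT means from 0.0668 CPM (Lypd2) to 1.64 CPM (Cldn1). In Tomato 7 dpi the means of Lypd2 and Cldn1 were 24.7 and 328 CPM. The mural, Schwann and macrophage sums overlapped. The part of these cells was not tested.

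Receptors of the ligands were counted from lists of 25 genes in 5 families. At 7 dpi 2 rose and 8 fell, where 32.0% of all genes tested were called (15.7% rises and 16.3% falls), so the total of 10 of 25 lies near that background. The median log2 fold changes of the families were -0.79 for neurotrophin, -1.08 for GDNF, -0.56 for neuregulin, -0.77 for cytokine and 1.18 for Hgf receptors, against -0.10 over all genes tested. Among 9 neurotrophin receptors Ngfr, the p75 receptor, rose from 9.16 ± 4.55 CPM (SD, n = 5) to 27.1 ± 10.3 (n = 5; log2 fold change 1.5 ± 0.34 SE, edgeR adjusted p = 0.00261), while Ntrk2, the Bdnf receptor, fell (-0.79 ± 0.18, adjusted p = 0.00244) and so did Sort1, the sorting receptor of proneurotrophins (-1.07 ± 0.19, adjusted p = 3.1e-04). The Ntf3 receptor Ntrk3 did not pass (-0.79 ± 0.37, adjusted p = 0.120). Ngfr is also a Schwann cell marker of the list above.

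Of the 6 GDNF family receptors 3 fell at 7 dpi, all of them ligand-binding GFRalpha chains: Gfra1 (-1.53 ± 0.39 SE, edgeR adjusted p = 0.00562), Gfra2 (-2.07 ± 0.17, adjusted p = 1.6e-07) and Gfra4 (-2.44 ± 0.36, adjusted p = 5.4e-05). The signalling chain Ret, at 34.9 ± 21.5 CPM in intact (SD, n = 5), did not pass (-0.57 ± 0.28, adjusted p = 0.149). Erbb2, the shared ErbB co-receptor, fell (-0.69 ± 0.19, adjusted p = 0.00834), 1 of 4 neuregulin receptors. In the cytokine family 2 of 4 fell, Lifr from 564 ± 196 to 227 ± 50.4 CPM (-1.29 ± 0.18, adjusted p = 2.8e-05) and Cntfr, the CNTF-binding chain, from 48.8 ± 37.3 to 2.75 ± 1.6 CPM (-3.99 ± 0.51, adjusted p = 1.4e-05). Met, the Hgf receptor, rose from 9.31 ± 5.91 to 24.7 ± 10.8 CPM (1.51 ± 0.31, adjusted p = 0.00131). These 10 calls held when any single library was left out.

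**Figure D5:**
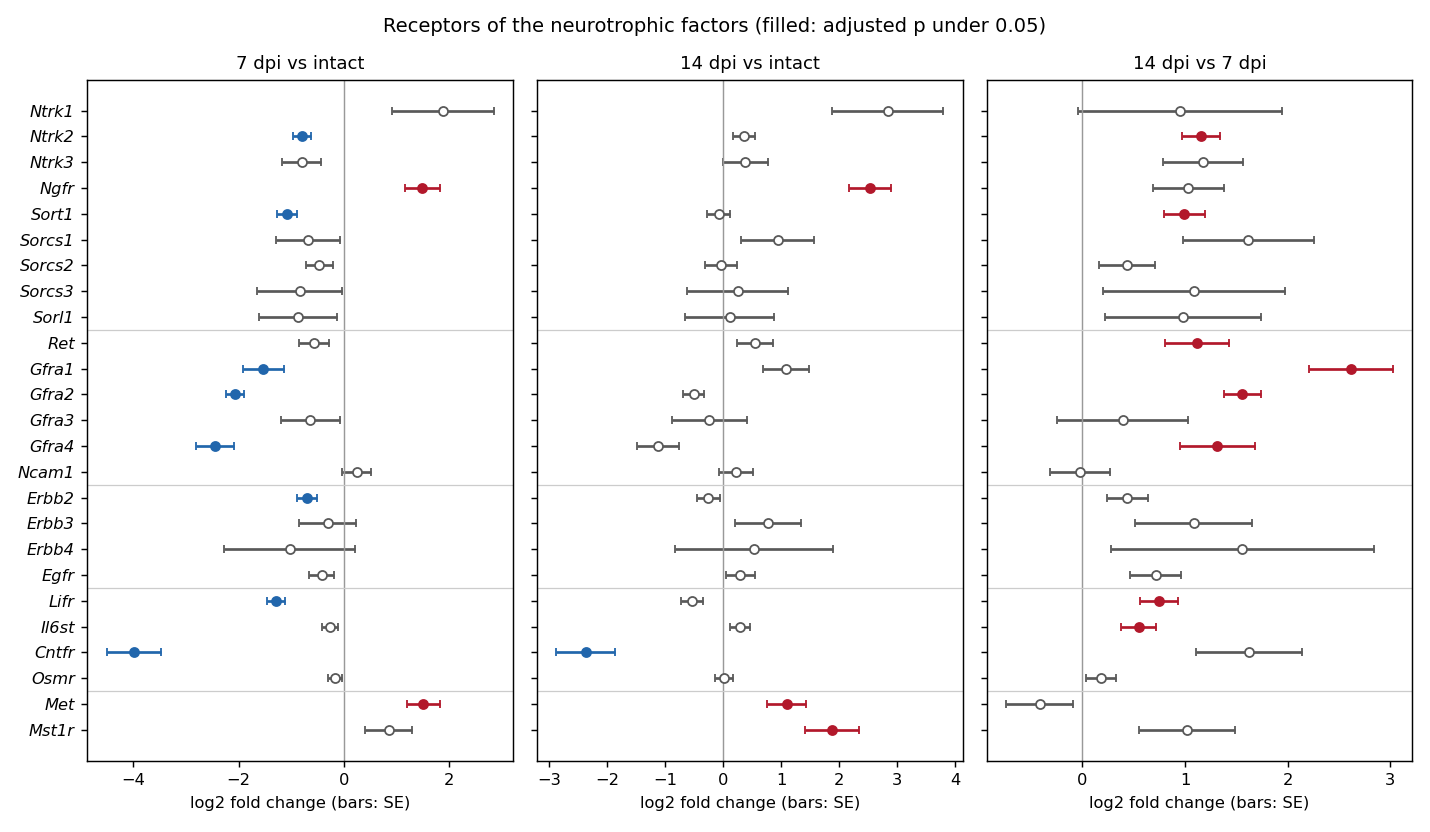
Log2 fold change with SE of 25 receptor genes in the 3 Tomato comparisons, grouped by ligand family (lines separate the families); filled points passed at an edgeR adjusted p under 0.05. GFRalpha chains, Lifr and Cntfr lie left of 0 at 7 dpi and right of 0 from 7 to 14 dpi, and Ngfr and Met lie right of 0 in both comparisons with intact.

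At 14 dpi against intact 3 of the 25 receptors were higher and 1 lower, near the background of 12% of all genes called (6.86% rises and 5.09% falls). Ngfr reached 57.7 ± 24.8 CPM (SD, n = 4; log2 fold change 2.53 ± 0.36 SE, edgeR adjusted p = 1.7e-04), and Cntfr was still low at 11.3 ± 8.56 CPM (-2.37 ± 0.50, adjusted p = 0.00448). Met (1.09 ± 0.33, adjusted p = 0.0396) and Mst1r, its close relative that binds macrophage-stimulating protein (1.87 ± 0.47, adjusted p = 0.0136), rose. The Met call was lost without intact replicate 1 (adjusted p = 0.11) or any one of the 4 libraries at 14 dpi (adjusted p from 0.0805 to 0.124), and that of Mst1r without 14 dpi replicate 2 (0.0663) or intact replicate 4 (0.0516).

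From 7 to 14 dpi 8 of the 25 receptors rose and none fell, where 5.73% of all genes rose and 4.20% fell. The family medians were 1.03, 1.22, 0.90, 0.65 and 0.30 in the order above, against 0.06 over all genes. Gfra1 went from 13.2 ± 7.88 CPM (SD, n = 5) to 86.7 ± 39.8 (n = 4; log2 fold change 2.62 ± 0.41 SE, edgeR adjusted p = 7.2e-04). Gfra2 (1.56 ± 0.18, adjusted p = 5.9e-05), Ntrk2 (1.15 ± 0.19, adjusted p = 9.1e-04) and Sort1 (0.99 ± 0.20, adjusted p = 0.00406) rose, and these 4 calls held when any single library was left out. Lifr rose by 0.75 ± 0.18 (adjusted p = 0.0159), a call lost without 14 dpi replicate 3 (0.50, adjusted p = 0.0576). Within 14 dpi that library had the highest fibroblast, perineurial, Schwann and macrophage sums and the lowest endothelial sum. Ret (1.12 ± 0.31, adjusted p = 0.0312), Gfra4 (1.31 ± 0.37, adjusted p = 0.0313) and Il6st (0.55 ± 0.17, adjusted p = 0.0490) also passed, but leaving out 1 library ended the call in 6, 6 and 7 of 9 refits, with adjusted p up to 0.0954, 0.122 and 0.167. These included refits without 7 dpi replicates 1, 4 or 5 and without 14 dpi replicates 3 or 4 for all 3 genes, and without 7 dpi replicate 2 for Ret and Il6st, 7 dpi replicate 3 for Il6st and 14 dpi replicate 2 for Gfra4. Markers of other cells also fell at 7 dpi and rose from 7 to 14 dpi. At 7 dpi all 8 perineurial, 7 of 10 mural and 7 of 12 Schwann markers fell, and from 7 to 14 dpi 5, 2 and 7 genes of these lists rose and none fell. Perineurial sums were 4688 to 7488 CPM in intact, 597 to 1256 CPM at 7 dpi and 1650 to 3682 CPM at 14 dpi. Mural sums were 1986 to 2771, 849 to 2220 and 1068 to 3597 CPM, with overlap, and no mural marker was at 0 in a Tomato library. The part of these cells in the receptor values was not tested. In the KO comparison none of the 19 receptors tested was called by edgeR or DESeq2, and 6 had an unadjusted p under 0.05. The share of all genes at that unadjusted threshold was not worked out. These 6 were Met, Osmr, Il6st, Ngfr, Sorcs1 and Sorcs2, with negative log2 fold changes. Without that share their number and direction are not read as a result. Ngfr is also a Schwann marker, and the median log2 fold change of the 12 Schwann markers in KO was -1.655, against -0.01 over all genes. Among those Met was at 22.0 ± 1.27 CPM in WT and 15.0 ± 0.786 in KO (SD, n = 3 each; -0.55 ± 0.16, edgeR adjusted p = 0.227), with no overlap.

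Other ligands of these families were followed in a list of 14 genes, of which 12 passed the Tomato filter, with a median log2 fold change of -0.30 at 7 dpi, against -0.10 over all genes. At 7 dpi Il6, the founding cytokine of the Lif and Cntf family, rose from 31.2 ± 21.1 to 134 ± 30.5 CPM (SD, n = 5 each; log2 fold change 2.18 ± 0.27 SE, edgeR adjusted p = 1.1e-05). Ctf1, cardiotrophin, fell by 1.20 on the log2 scale (SE 0.34, edgeR adjusted p = 0.0125), a call lost without the batch term (adjusted p = 0.139). Il6 was also higher at 14 dpi (2.07 ± 0.28, adjusted p = 1.1e-04). Il6 was lower in KO, at 104 ± 8.87 CPM against 153.8 ± 11.8 in WT (n = 3 each; -0.62 ± 0.10, adjusted p = 0.0229), a call lost without KO replicate 1 (adjusted p = 0.397), 2 (0.0543) or 3 (0.147), without WT replicate 3 (0.193), and without the batch term (-0.57, adjusted p = 0.859).

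Of 16 genes that cut, activate or restrain these ligands, 14 passed the Tomato filter, and at 7 dpi 7 rose and 2 fell, where 15.7% of all genes rose and 16.3% fell. The median log2 fold change of the 14 was 0.34, against -0.10 over all genes. Plau, the urokinase that can activate pro-Hgf, rose from 10.2 ± 2.0 to 29.3 ± 6.73 CPM (SD, n = 5 each; log2 fold change 1.54 ± 0.19 SE, edgeR adjusted p = 1.0e-05) and Hpn, hepsin, another pro-Hgf protease, by 2.40 ± 0.45 (adjusted p = 4.9e-04). Furin, which cleaves proneurotrophins, rose by 0.60 ± 0.17 (adjusted p = 0.0130), and Plat, the tissue activator, fell (-0.77 ± 0.24, adjusted p = 0.0192), a call lost without intact replicate 2 (adjusted p = 0.0535) or 7 dpi replicate 3 (0.0515). At 14 dpi against intact 3 of 14 rose and none fell (6.86% and 5.09% of all genes), and from 7 to 14 dpi 1 rose and 2 fell (5.73% and 4.20%). In the KO comparison none of 14 was called by edgeR or DESeq2, and 1 had an unadjusted p under 0.05.

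The genes whose levels ran most like each ligand were sought over the 14 Tomato libraries, by Pearson's r of log2(CPM + 1) among 10019 better expressed genes. They were Rian (r = 0.860), Meg3 (0.830) and Cdh3 (0.802) for Bdnf, and Sp1 (0.954), Slfn2 (0.953) and Id2 (0.925) for Ntf3. Rian and Meg3 are maternally expressed noncoding RNAs of one imprinted locus, Sp1 is a general transcription factor and Id2 an inhibitor of helix-loop-helix factors. For Lif they were Fdxr (0.879), Matn4 (0.865) and Ubash3b (0.862), and for Cntf they were Gprc5c (0.873), Clcn4 (0.843) and Sort1 (0.838), the proneurotrophin receptor that also fell at 7 dpi. The points share library, depth, batch and group, and the genes were the highest of many, so these are descriptions without a test.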

How the data were processed

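Counts per gene in whole numbers, as deposited by the authors, were used for 14 Tomato and 6 Cherry libraries; a further deposited Cherry count table, corrected with ComBat-Seq, served as an alternative. Reads were handled with Trimmomatic 0.39, STAR 2.5.3a and featureCounts 1.6.4 on mm10 (GRCm38), per the submitters' processing notes, which also name Cell Ranger 3.0.2. Not given in the sources used here are the annotation release, whether strand was used and how reads with several alignments were counted, so reads of Bdnf, Nrg1 and Hgf may be shared with overlapping gene models (Gm45346, Gm22140, Gm26578, Gm42975 and Gm43489). All sample columns were mapped to a library.

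Each experiment was fitted on its own with edgeR 4.0.16 in R 4.3.3 (filterByExpr by group, TMM, robust quasi-likelihood F test, batch as covariate, the 3 Tomato groups in 1 fit). Genes were called at a Benjamini-Hochberg adjusted p under 0.05 over all genes tested. The SE is approximate (log2 fold change over the root of its F value), and 95% intervals use the t quantile of the fit. Members below the filter with at least 10 counts in a library were compared by two-sided exact permutation of log2(CPM + 1). The fit was tested on simulated counts. Over 32 pairs of replicate libraries the chi-square of counts per degree of freedom was 17.5 to 134.8, so none was a duplicate. Alternatives were DESeq2 1.42.0, RLE factors, library size only, no filter, no batch term, only the 2 groups compared, each batch alone, the ComBat-Seq table and each library left out; a group-by-batch term was added after values by batch were seen.

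The members and gene lists were chosen with earlier results of these data known. Named are all members, every called receptor, and in the other lists the first symbol and up to 4 called genes of greatest fold per comparison; the text gives part of these, and some are not reported here. Promoter windows come from RefSeq (GRCm38.p6), which had entries for 7 of the 8 members.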

Additional observations from a re-analysis of the deposited data

Results flagged for a closer look

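In 5 of the 24 groups of 4 or 5 libraries examined, 1 library lay far from the rest of its group. A chance rate for low counts such as these was not worked out, so the 5 are not read as an excess. All 5 were high values of scarce ligands, and none was weighed further.

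Nrg1 was high in 1 library of each Tomato group: 4.67 CPM (142 counts) in intact replicate 5, where the next library had 0.568 CPM, 1.92 CPM (66 counts) in 7 dpi replicate 5, next 0.344 CPM, and 1.09 CPM (21 counts) in 14 dpi replicate 1, next 0.302 CPM. Hgf was 5.27 CPM (102 counts) in intact replicate 2, next 1.06 CPM. Gdnf was 0.604 CPM (16 counts) in 14 dpi replicate 2, next 0.0301 CPM.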

How the results depend on the processing

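No paired analysis was possible because the labels give no replicate numbers that groups share. Among genes called, 7 dpi against intact gave 6535, and 2984 in batch 1133 alone. For 14 dpi against intact, 2439 fell to 1091 in batch 1133 alone and 1491 in batch 1292 alone. From 7 to 14 dpi, 2027 became 3227 with DESeq2, 1226 without the batch term, and 534 and 733 in batches 1133 and 1292 alone. For KO against WT, 50 became 233 with DESeq2, 230 without a filter, 5 without the batch term, 421 with the ComBat-Seq table and 6 to 53 with 1 library left out; of the 50, 21 were rises, against 16 of 52 with library size only.

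Among members called, the 3 at 7 dpi became 1 in each batch alone and 1 to 3 with 1 library left out. The 1 at 14 dpi, Bdnf, became 0 with RLE factors (adjusted p = 0.0559), library size only (0.0904), no batch term (0.0739), only the 2 groups (0.103) and batch 1133 alone, and 0 to 1 with 1 library left out. From 7 to 14 dpi 0 became 1 with DESeq2, 1 without a filter and 0 to 1 with 1 library left out. Lif at 7 dpi also lost its call without a filter (adjusted p = 0.0947) and with only the 2 groups (0.0630). The cause of these shifts was not tested, apart from fewer samples where libraries were left out.

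Directions turned only in member values that were not called. Log2 fold changes turned for Hgf at 7 dpi (-0.055 without the batch term, -0.67 in batch 1292, -0.34 to 1.03 with 1 library left out) and 14 dpi (-0.26 in batch 1292, -0.0077 to 1.37), Cntf at 14 dpi (-0.17 in batch 1292, -0.17 to 0.32), and Nrg1 at 7 dpi (-2.02 to 0.74), 14 dpi (1.63 in batch 1292, -1.77 to 0.76) and between them (-0.32 without the batch term, -0.025 with 2 groups, -2.35 in batch 1133, -0.91 to 1.18). Gdnf turned from 7 to 14 dpi (1.63 in batch 1292). For KO against WT the CPM means of Bdnf and Lif differed in direction between the batches, as given above. In KO, Bdnf (-0.014 with library size only, -0.17 to 0.30) and Lif (0.016 with the ComBat-Seq table, -3.50 to 2.86) turned, and with 1 library left out so did the log2(CPM + 1) differences of Gdnf (-0.31 to 0.39), Nrg1 (-0.12 to 0.12) and Hgf (-0.027 to 0.17), and that of Artn between injured groups (-0.13 to 0.053).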
